A study of Homo sapiens with 3 samples.

Results

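Integrins and laminins were examined as 32 genes chosen by name, 22 integrin chains and 10 laminin chains, among the 60504 genes of an RNA-Seq table from DLD1 cells, an established human colorectal cancer cell line. The table held 3 libraries. DLD1 control cells, wild type for BEX2, gave 1 library, and BEX2-/- DLD1 cells gave 2, 1 from each of 2 clones made with CRISPR/Cas9 (clone 1 and clone 2). No agent was applied in either group. Each BEX2-/- library stands for a line grown from edited cells, the control had no replicate library, and the same control library served for each clone. Differences that come with a clone and differences that come with the genotype cannot be told apart in a single clone, so the value in each clone is given separately.

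Integrins are receptors made of an alpha and a beta chain that span the plasma membrane and tie the extracellular matrix to the cytoskeleton. The alpha chain largely sets the ligand: some pairs bind laminin, others collagen, and others the short RGD sequence of fibronectin, vitronectin and the latent form of TGF-beta. Laminins are trimers of an alpha, a beta and a gamma chain that form the scaffold of basement membranes. In intestinal epithelium the pair of ITGA6 and ITGB4 holds cells to laminin at hemidesmosomes, while pairs with ITGB1 serve as general matrix receptors.

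Values are FPKM, fragment counts scaled to library size and to the length of all annotated exons of a gene, merged over its transcripts. A gene expressed from a short transcript thus has an understated level, so levels, ratios and shares of different genes compare only roughly. Reads behind each value were recovered from the steps between low values, and the libraries held 47458850 (DLD1 control cells), 35593989 (clone 1) and 47722374 (clone 2) reads. BEX2 was listed at 0 in all 3 libraries, control cells included, and gave no check of the labels. In control cells 3 reads of BEX2 would be 0.0538 FPKM. The paper chose DLD1 for its relatively high BEX2 protein, whereas no BEX2 RNA was seen in the control library here. Of 9 markers of colonic epithelium, 7 were at 1 FPKM or more in every library. The 5 markers EPCAM, CDX2, VIL1, CDH17 and GPA33 were highest in clone 1 and lowest in clone 2, with VIL1, a protein of microvilli, at 3.61, 13.2 and 0.22 FPKM in control, clone 1 and clone 2. The keratins KRT8 (538, 510 and 611 FPKM) and KRT18 (412, 312 and 455 FPKM) had the opposite order, KRT19 was also highest in clone 2, at 305, 442 and 494 FPKM, and CDH1 was at 42.6, 53.9 and 50.5 FPKM. Markers of other cell types summed to between 0.749 and 0.811 FPKM for leukocytes (4 of 7 at 0, PTPRC among them), 0.129 and 0.634 for fibroblasts (3 of 7 at 0) and 0.0649 and 0.0784 for endothelium (2 of 4 at 0). The 4 platelet markers, of which GP9 was at 0, summed to between 6.92 and 7.28 FPKM, nearly all of it from PF4. In bulk libraries, fewer cells of a type and less RNA per cell cannot be told apart.

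DLD1 cells expressed the integrin and laminin chains of an epithelium. Of the 32 genes, 16 passed the filter on low values, for which the control level and the clone average together had to average at least 1 FPKM, and 15 were under 1 FPKM in every library. ITGA1 lay between, above 1 FPKM in clone 2 alone. ITGB4 had the highest level of all members in every library, at 27.8 FPKM in control cells, 38.4 in clone 1 and 35.2 in clone 2. In control cells ITGA6 (20.9 FPKM), ITGB1 (20.8 FPKM) and ITGB5 (20.3 FPKM) followed at nearly the same level, and then LAMB3 (16.7 FPKM) and LAMB2 (16.2 FPKM), LAMB1 (11.5 FPKM) and ITGA3 (10.8 FPKM). Neighbours in this order that lay this close could not be ranked, since between the clones the level of ITGB5 alone ranged from 15.2 to 25.4 FPKM. The order near the top differed between libraries: in clone 1 ITGA6 held the second place, and in clone 2 LAMB3 did, with LAMB2 next and ITGA6 at place 6.

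**Figure D1:**
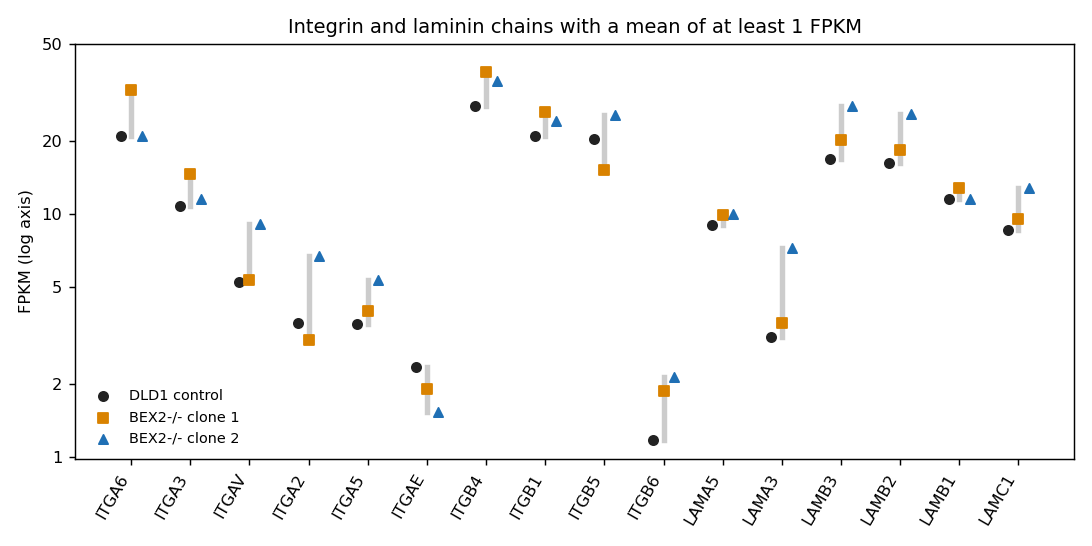
FPKM on a log axis of the 16 integrin and laminin genes past the filter on low values, with 1 point per library for DLD1 control cells, clone 1 and clone 2 and a grey line over the range of the 3 libraries. ITGB4 is highest in all 3 libraries, and ITGA6 is higher in clone 1 than in both other libraries. Clone 2 stands above both other libraries for LAMA3, ITGA2 and ITGAV, among others.

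The question asked of the clones was whether BEX2-/- cells held other levels of these chains than control cells did. Ratios were taken of FPKM + 1 on a log2 scale, which understates differences of low genes, and a ratio of at least 2-fold was counted. None of the 16 members past the filter reached 2-fold in clone 1, where 2.02% of 11675 genes did, nor in clone 2, where 2.06% did. None did so in the same direction in both clones (0.325% of genes) or between the clones (4.19%). At 1.5-fold, 5 members were above the control in clone 2, namely ITGA2, ITGAV, LAMA3, LAMB2 and LAMB3, against 4.77% of all genes, and 0 were lower (3.56%). In clone 1, 1 member was higher by 1.5-fold, ITGA6 (3.55% of genes), and 0 were lower (2.71%). Between the clones 4 members were at least 1.5-fold higher in clone 2, ITGA2, ITGAV, ITGB5 and LAMA3 (6.23% of genes), and 1 was lower, ITGA6 (6.14%). The members past the filter had median log2 ratios of 0.15 (clone 1) and 0.41 (clone 2), where the medians of all genes were 0.04 and -0.01. For the 6 laminin chains the medians were 0.15 and 0.58, and for the 10 integrin chains 0.24 and 0.32.

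Control cells were also compared with both clones together by limma, a linear model fitted over all 11675 genes with 1 residual degree of freedom, in which the lone control library is assumed to vary as the clones do. No gene passed an adjusted p-value of 0.05 (0% of genes), and 139 genes, none of them a member, had an unadjusted p under 0.05. Each of the 16 members had a Benjamini-Hochberg adjusted p of 1.00 in limma. The smallest unadjusted p among them in limma was 0.101, for ITGB4, with a log2 difference of 0.39 ± 0.18 (SE). Differences described below between single libraries therefore carry no test of the genotype, and their intervals are exact 95% intervals that cover counting error only.

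**Figure D2:**
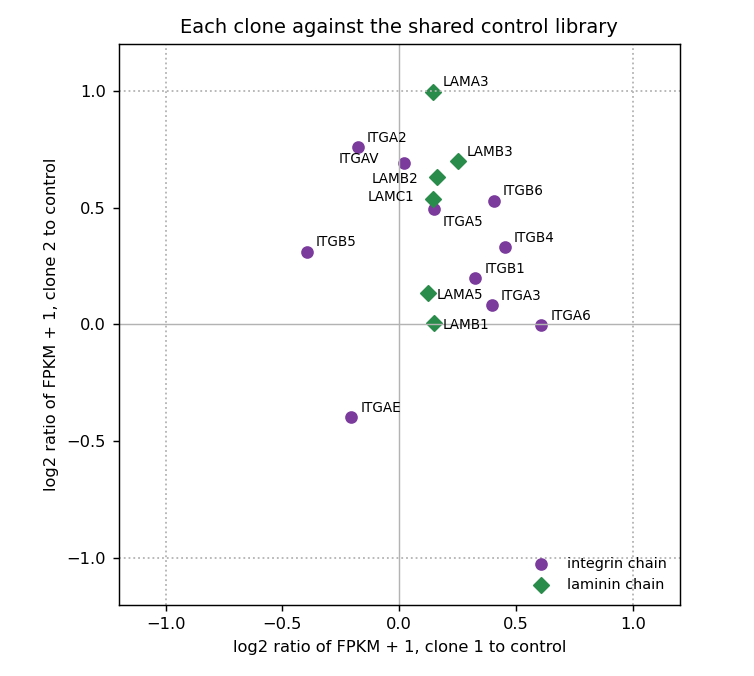
Log2 ratio of FPKM + 1 to the control library in clone 1 (horizontal axis) and in clone 2 (vertical axis) for the 10 integrin and 6 laminin chains past the filter, with dotted lines at 2-fold. Both axes share the control library, no point lies past a dotted line in clone 1 or in clone 2, and LAMA3 sits closest to the line for clone 2, at 1.00 (0.996 before rounding).

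Of the laminin receptor chains of hemidesmosomes, ITGB4 was the most abundant integrin chain in every library, while ITGA6 lay below ITGB5 and ITGB1 in clone 2. ITGB4, whose long cytoplasmic tail binds plectin, gave 8914 reads in control cells, 9240 in clone 1, the shallowest library, and 11356 in clone 2. Its FPKM was 1.38-fold the control value in clone 1 (1.34 to 1.42) and 1.27-fold in clone 2 (1.23 to 1.30), and the clones averaged 36.8 ± 2.26 FPKM (SD, n = 2). Both clones thus lay above the control library by more than their distance from each other. ITGB4 lies on the plus strand of chromosome 17, from 75721328 to 75757818 of GRCh38.

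ITGA6, the laminin-binding alpha chain that pairs with ITGB4 or ITGB1, was at 20.9 FPKM in control cells, 32.3 in clone 1 and 20.8 in clone 2. Clone 1 stood apart at 1.55-fold the control (1.5 to 1.6), while the ratio in clone 2 was 0.998 (0.964 to 1.03) and took a value just above 0 on the log2 scale under some scalings. ITGA6 lies on the plus strand of chromosome 2, from 172427354 to 172506282. ITGA3, a second laminin-binding alpha chain and partner of ITGB1, was at 10.8, 14.5 and 11.5 FPKM in the same order, again highest in clone 1, at 1.35-fold the control (1.29 to 1.40) against 1.06-fold in clone 2 (1.02 to 1.11). The level of ITGA6 relative to that of ITGB4 was 0.751 in control cells, 0.842 in clone 1 and 0.592 in clone 2. Clone 2 thus had the least ITGA6 for its ITGB4. ITGA7, a laminin receptor best known from muscle, was low, at 0.698, 0.384 and 0.355 FPKM. Both clones were below the control, at ratios of 0.550 (0.423 to 0.709) and 0.509 (0.400 to 0.645), from 211, 87 and 108 reads. ITGA7 shares 44 nt of exons on the opposite strand with METTL7B, at 10.7, 7.69 and 7.9 FPKM, which was lower in both clones too, and its part was not tested.

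ITGB1, the common partner of most alpha chains, was at 20.8, 26.3 and 24.0 FPKM. Both clones were above the control, by 1.26-fold (1.22 to 1.31) in clone 1 and 1.15-fold (1.11 to 1.19) in clone 2. The distance of the clone mean, 25.2 ± 1.64 FPKM (SD, n = 2), from the control value was larger than the SD of the clones, although limma gave a log2 difference of 0.26 ± 0.18 (SE), with an adjusted p of 1.00.

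Among the collagen receptors, ITGA1 and ITGA2 were higher in clone 2 than in both other libraries. ITGA1 and ITGA2 encode alpha chains that bind collagen through an inserted domain and pair with ITGB1. They are neighbours on the plus strand of chromosome 5, ITGA1 from 52787896 to 52959210 and ITGA2 from 52989326 to 53094779, with 30.1 kb between them. Because these neighbours were both highest in clone 2, the 250 bases before their RefSeq start sites are shown, chr5:52787666-52787915 and chr5:52989102-52989351 of GRCh38.p14, plus strand. Capitals would mark TGANTCA, the motif bound by AP-1 factors such as FOS and JUN, which reads the same on both strands, and these letters occur in neither window.
ITGA1: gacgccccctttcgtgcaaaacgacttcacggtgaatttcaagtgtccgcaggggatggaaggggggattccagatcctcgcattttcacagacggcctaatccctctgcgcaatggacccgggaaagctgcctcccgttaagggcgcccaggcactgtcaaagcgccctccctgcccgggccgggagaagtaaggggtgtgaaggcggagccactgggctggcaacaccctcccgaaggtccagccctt
ITGA2: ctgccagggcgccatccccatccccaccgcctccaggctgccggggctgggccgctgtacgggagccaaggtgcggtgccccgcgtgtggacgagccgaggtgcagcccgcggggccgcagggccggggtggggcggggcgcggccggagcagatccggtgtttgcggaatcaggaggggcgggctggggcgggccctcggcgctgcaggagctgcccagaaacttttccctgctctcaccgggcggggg

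ITGA2 was at 3.55 FPKM in control cells, 3.02 in clone 1 and 6.69 in clone 2, from 1332, 851 and 2526 reads. Clone 1 lay slightly below the control, at a ratio of 0.852 (0.781 to 0.929), and clone 2 above it, at 1.89 (1.76 to 2.02). Clone 2 had 2.21 times the level of clone 1 (2.05 to 2.40), and the clone average, 4.86 ± 2.59 FPKM (SD, n = 2), was less than 1 SD from the control.

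ITGA1 was low in control cells and clone 1, at 0.0953 and 0.124 FPKM, and reached 1.15 FPKM in clone 2, from 84, 82 and 1015 reads. Clone 2 alone was high, at 12.0-fold the control (9.61 to 15.2) and 9.23-fold clone 1 (7.37 to 11.7), while clone 1 was at 1.30-fold the control (0.948 to 1.79). On the FPKM + 1 scale the log2 ratio in clone 2 was 0.97, and ITGA1 did not pass the filter on low values. Its level relative to ITGB1 was 0.00458 in control cells, 0.00471 in clone 1 and 0.0477 in clone 2, highest in clone 2. Of the exons of ITGA1, 475 nt are shared on the same strand with PELO, a ribosome rescue factor at 5.62, 4.91 and 7.98 FPKM, and 109 nt on the opposite strand with AC022126.1 at 0.0355, 0 and 0.707 FPKM. PELO and AC022126.1 were highest in clone 2 as well, and their part in the value of ITGA1 was not tested. The other genes that share its exons, AC022133.1 (571 nt, same strand) and AC025180.1 (118 nt, opposite strand), were at 0 in every library.

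The remaining collagen receptor chains were low. ITGA10, known from cartilage, was at 0.357, 0.396 and 0.345 FPKM, without a difference beyond counting error in either clone (0.828 to 1.48 and 0.731 to 1.28). ITGA11, known from fibroblasts, was at 0.0213, 0.0103 and 0.00772 FPKM, which stand for 11, 4 and 4 reads. Its ratios to the control of 0.485 and 0.362 had counting intervals of 0.113 to 1.64 and 0.0840 to 1.22, so no difference was detectable at this depth.

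Among the receptors for the RGD sequence other than ITGB1, ITGB5 and ITGAV had the highest levels. ITGAV, which pairs with ITGB1, ITGB3, ITGB5, ITGB6 and ITGB8, was at 5.24 FPKM in control cells, 5.33 in clone 1 and 9.07 in clone 2. Clone 2 alone was higher, at 1.73-fold the control (1.64 to 1.83), whereas clone 1 was at 1.02-fold (0.952 to 1.09), with a log2 ratio that crossed 0 under other scalings. ITGB5, the beta chain of a vitronectin receptor, was at 20.3, 15.2 and 25.4 FPKM. The clones lay on opposite sides of the control, clone 1 at a ratio of 0.748 (0.717 to 0.779) and clone 2 at 1.25 (1.21 to 1.30), and their mean of 20.3 ± 7.25 FPKM (SD, n = 2) equalled the control to 3 digits. The level of ITGAV relative to ITGB5 was 0.258 in control cells, 0.351 in clone 1 and 0.357 in clone 2, higher in both clones through a lower ITGB5 in clone 1 and a higher ITGAV in clone 2.

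ITGB6 and ITGB8 form with ITGAV the receptors that activate latent TGF-beta. ITGB6, an epithelial chain, was at 1.17, 1.87 and 2.13 FPKM, from about 260, 313 and 477 reads. It was higher in both clones, by 1.60-fold (1.36 to 1.90) and 1.82-fold (1.57 to 2.13), with a limma log2 difference of 0.47 ± 0.23 (SE) and an adjusted p of 1.00. Its reads were approximate, and 966 nt of its exons are shared with AC092153.1 on the same strand. ITGB8 was under 1 FPKM throughout, at 0.147, 0.102 and 0.545 FPKM from 106, 55 and 394 reads. Clone 2 alone was high, at 3.70-fold the control (2.98 to 4.63) and 5.34-fold clone 1 (4.02 to 7.22). ITGB3, the beta chain of platelets and osteoclasts, was listed at 0 in control cells and clone 1 and at 0.0382 FPKM in clone 2, which stands for 8 reads. With the limit of 3 reads put in place of 0, the ratio was 2.65 to control cells and 1.99 to clone 1. These values take the 8 reads as exact and are not lower limits of the ratio. Of its exons, 51.6% are shared with AC068234.1, which was listed at 0 in every library.

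ITGA5, the fibronectin receptor chain that pairs with ITGB1, was at 3.51, 3.99 and 5.34 FPKM. Both clones were above the control, by 1.14-fold (1.05 to 1.24) and 1.52-fold (1.42 to 1.64). ITGA8, a chain of kidney and smooth muscle that binds RGD ligands, was at 0 in every library, where 3 reads would be 0.00840 FPKM in control cells. ITGA9, a receptor for tenascin and other ligands, was at 0.359, 0.336 and 0.235 FPKM, lowest in clone 2 at a ratio of 0.656 (0.499 to 0.858) to the control. ITGA9 shares 535 nt of exons on the opposite strand with ITGA9-AS1. That gene was at 0.0855, 0.110 and 0.312 FPKM, highest in clone 2, and its part was not tested.

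**Figure D3:**
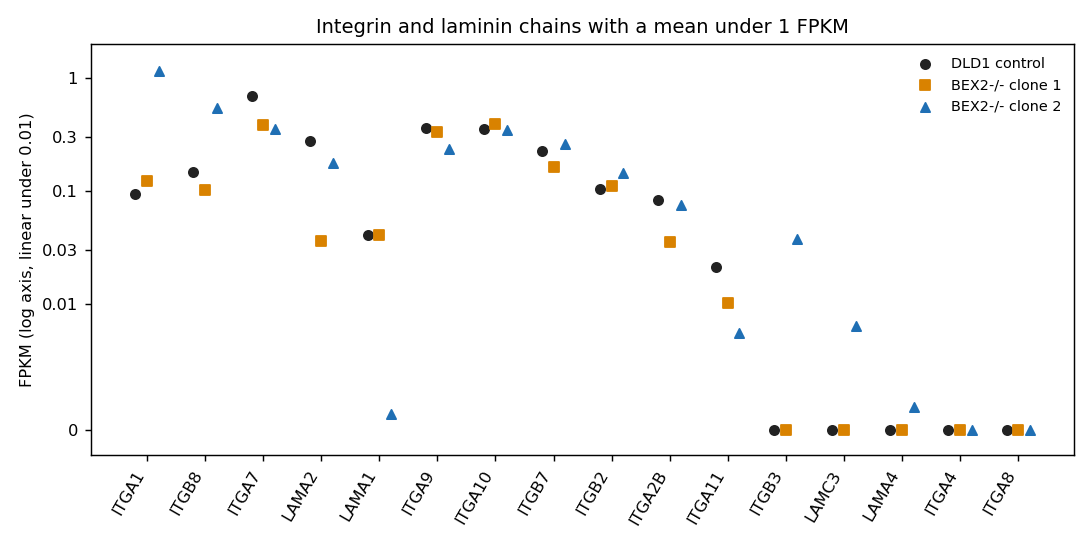
FPKM of the integrin and laminin genes that did not pass the filter, 1 point per library, on an axis that is logarithmic above 0.01 FPKM and linear below it. ITGA1 and ITGB8 are high in clone 2 alone, and ITGB3 is above 0 in clone 2 alone, on 8 reads. LAMA1 is low in clone 2 alone, and LAMA2 is lowest in clone 1.

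Integrin chains typical of leukocytes and platelets were low, apart from ITGAE. ITGAE, the chain by which intraepithelial lymphocytes bind E-cadherin, was at 2.34 FPKM in control cells, 1.89 in clone 1 and 1.54 in clone 2. Both clones were below the control, at ratios of 0.810 (0.719 to 0.912) and 0.657 (0.585 to 0.737), and it was the only member past the filter that was lower in both. Its partner ITGB7 was at 0.226, 0.163 and 0.262 FPKM, so that the level of ITGAE was 10.4, 11.6 and 5.87 times that of ITGB7. ITGAE shares 427 nt of exons on the opposite strand with HASPIN, a kinase gene at 5.85, 5.36 and 4.31 FPKM, which was lower in both clones too, and its part was not tested. For ITGB7, 42.1% of the exon length lies opposite to exons of ZNF740, at 4.29, 4.55 and 4.51 FPKM, and reads of the pair cannot be told apart without strand.

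ITGB2, the common beta chain of leukocytes, was at 0.105, 0.112 and 0.145 FPKM, from 34, 27 and 47 reads, without a difference beyond counting error. ITGA2B, the platelet alpha chain, was at 0.0835, 0.0354 and 0.0755 FPKM, from 22, 7 and 20 reads. The value in clone 1 was the lowest, but its ratio to the control of 0.424 had an interval of 0.153 to 1.03. ITGA4, a chain of leukocyte homing receptors, was at 0 in every library, with a limit of 0.00800 FPKM for 3 reads in control cells.

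The laminin alpha chains differed from each other between the clones. LAMA5, the main alpha chain of mature epithelial basement membranes, was the most abundant at 9.0 FPKM in control cells, 9.89 in clone 1 and 9.97 in clone 2. Both clones lay close together, at 9.93 ± 0.0560 FPKM (SD, n = 2), and 1.10-fold (1.06 to 1.14) and 1.11-fold (1.07 to 1.15) above the control. LAMA5 shares 244 nt of exons on the opposite strand with ADRM1, at 31.9, 29.6 and 30.6 FPKM, and its part was not tested. LAMA3, the alpha chain that anchors hemidesmosomes, was at 3.12, 3.55 and 7.21 FPKM. Clone 2 alone was high, at 2.31-fold the control (2.2 to 2.43) and 2.03-fold clone 1 (1.92 to 2.14), while clone 1 was at 1.14-fold the control (1.07 to 1.21). On the FPKM + 1 scale the log2 ratio in clone 2 was 0.996, just under 2-fold, and limma gave 0.57 ± 0.43 (SE) for both clones, with an adjusted p of 1.00. The level of LAMA5 was 2.89 times that of LAMA3 in control cells, 2.78 times in clone 1 and 1.38 times in clone 2, since LAMA5 was alike in the clones and LAMA3 was not. Reads of LAMA3 were approximate, about 2172, 1857 and 5053.

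LAMA3 and LAMB3 join in the same laminin of epithelial hemidesmosomes. Their promoter windows are shown because they held TGANTCA, given in capitals, and not because of their levels. Both genes were highest in clone 2, but so were LAMB2, LAMC1 and ITGAV, whose windows did not hold the motif. The window of LAMA3 is chr18:23872770-23873019 on the plus strand. It belongs to a start site 183.6 kb inside the annotated gene (chromosome 18, 23689443 to 23956222) and holds the motif 2 times, starting 125 and 69 bases before the start site. The window of LAMB3 is chr1:209651375-209651624 on the minus strand, 1 of 3 for this gene (chromosome 1, 209614870 to 209652466), and holds the motif once, 67 bases before the start site.
LAMA3: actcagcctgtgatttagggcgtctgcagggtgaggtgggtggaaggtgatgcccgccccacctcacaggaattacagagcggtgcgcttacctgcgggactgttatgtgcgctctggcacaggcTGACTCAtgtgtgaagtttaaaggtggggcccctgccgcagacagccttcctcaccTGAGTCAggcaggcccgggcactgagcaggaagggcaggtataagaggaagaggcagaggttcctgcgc
LAMB3: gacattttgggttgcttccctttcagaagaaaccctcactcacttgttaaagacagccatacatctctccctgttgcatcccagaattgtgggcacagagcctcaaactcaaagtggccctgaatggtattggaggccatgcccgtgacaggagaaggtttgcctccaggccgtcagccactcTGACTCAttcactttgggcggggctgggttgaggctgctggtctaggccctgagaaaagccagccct
Of the 32 genes, 24 had a window in the RefSeq table, 31 windows in all, of which these 2 alone held the motif. Among all 35116 windows of the same length, 6.57% held it, a share like that of the members' windows. A match of letters is a description of the window, not a measurement of binding. No window was found for ITGA3, ITGA7, ITGA9, ITGB2, ITGB3, ITGB4, LAMA1 and LAMC3.

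LAMB3 and LAMB2, beta chains of laminin, had the highest levels of the laminin genes examined in each library. LAMB3, the hemidesmosomal beta chain, was at 16.7, 20.1 and 27.8 FPKM, from 3726, 3359 and 6220 reads. Both clones were above the control, by 1.2-fold (1.15 to 1.26) in clone 1 and 1.66-fold (1.59 to 1.73) in clone 2. LAMB2, the beta chain of mature and synaptic basement membranes, was at 16.2, 18.2 and 25.6 FPKM. It was likewise highest in clone 2, at 1.58-fold the control (1.53 to 1.64) against 1.12-fold in clone 1 (1.08 to 1.17). LAMB1, the beta chain found widely from the embryo onward, was at 11.5, 12.8 and 11.5 FPKM, and its ratio in clone 2 was 1.00 (0.963 to 1.05). The level of LAMB2 was accordingly 1.41 times that of LAMB1 in control cells, 1.42 times in clone 1 and 2.23 times in clone 2. LAMC1, the gamma chain of most laminins, was at 8.54, 9.53 and 12.8 FPKM. It was highest in clone 2, at 1.5-fold the control (1.44 to 1.57), and 1.12-fold in clone 1 (1.06 to 1.17).

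All 6 laminin chains past the filter had a log2 ratio above 0 in clone 1 (0.12 to 0.25) and in clone 2 (0.01 to 1.00), where 56.2% and 48.4% of all genes did. Between the clones 5 of the 6 were higher in clone 2, against 42.2% of all genes, and LAMB1 was lower. The comparisons with the control share its library, so the counts for the clones are not independent of each other.

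The remaining laminin chains were under 0.3 FPKM in every library. LAMA2, the alpha chain of muscle and nerve, was at 0.280, 0.0362 and 0.179 FPKM, from about 138, 13 and 88 reads. It was lowest in clone 1, at a ratio of 0.129 (0.0652 to 0.222) to the control, and 0.638 (0.480 to 0.835) in clone 2. LAMA1, the alpha chain of early embryonic basement membranes, was at 0.0412, 0.0407 and 0.00132 FPKM, which stand for 31, 23 and 1 read. Clone 2 alone was low, at a ratio of 0.0321 to the control (0.000787 to 0.192). LAMA4, an endothelial chain, gave 0, 0 and 1 read, and LAMC3 gave 0, 0 and 3 reads, so neither was above the limit of 3 reads in any library.

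Because the pseudocount hides differences of low genes, ratios of FPKM without it were also counted, with values under 3 reads set to 3 reads, a scale chosen after the values were seen. It covered 28 members and 22459 genes. In clone 1, 3 members were at least 2-fold lower, ITGA11, ITGA2B and LAMA2 (6.21% of genes), and 0 were higher (9.09%). In clone 2, 4 were higher, ITGA1, ITGB3, ITGB8 and LAMA3 (8.7% of genes), and 2 were lower, ITGA11 and LAMA1 (8.86%). Between the clones 6 of 28 members were higher in clone 2, ITGA1, ITGA2, ITGA2B, ITGB8, LAMA2 and LAMA3 (9.03% of genes), and 1 was lower, LAMA1 (11%). ITGA2B rested on 7 reads in clone 1 and 20 in clone 2, and the interval of its ratio, 0.866 to 5.96, included 1. In clone 1 the intervals of ITGA11 and ITGA2B against the control, given above, also included 1. ITGA11 was lower in both clones, as were 2.39% of genes, on 11, 4 and 4 reads.

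Summed FPKM of a chain class shows how the makeup of the receptors and laminins differed. The 14 integrin alpha chains summed to 47.9 FPKM in control cells, 62.4 in clone 1 and 57.1 in clone 2. ITGA6 held 43.5%, 51.8% and 36.5% of that sum. ITGA2 held 7.40%, 4.84% and 11.7%, and ITGAV 10.9%, 8.54% and 15.9%. Clone 1 had the largest share of the laminin receptor chain and clone 2 the largest shares of the collagen and vitronectin receptor chains, with control cells between them. The 8 beta chains summed to 70.6, 82.2 and 87.8 FPKM, in which ITGB5 held 28.8%, 18.5% and 29%. The laminin alpha chains summed to 12.4, 13.5 and 17.4 FPKM, in which LAMA3 held 25.1%, 26.3% and 41.5%. The laminin beta chains summed to 44.4, 51.2 and 64.9 FPKM, in which LAMB1 held 25.8%, 25.0% and 17.7%. Each of the 4 classes summed higher in both clones than in control cells, although single libraries leave these differences without a test.

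**Figure D4:**
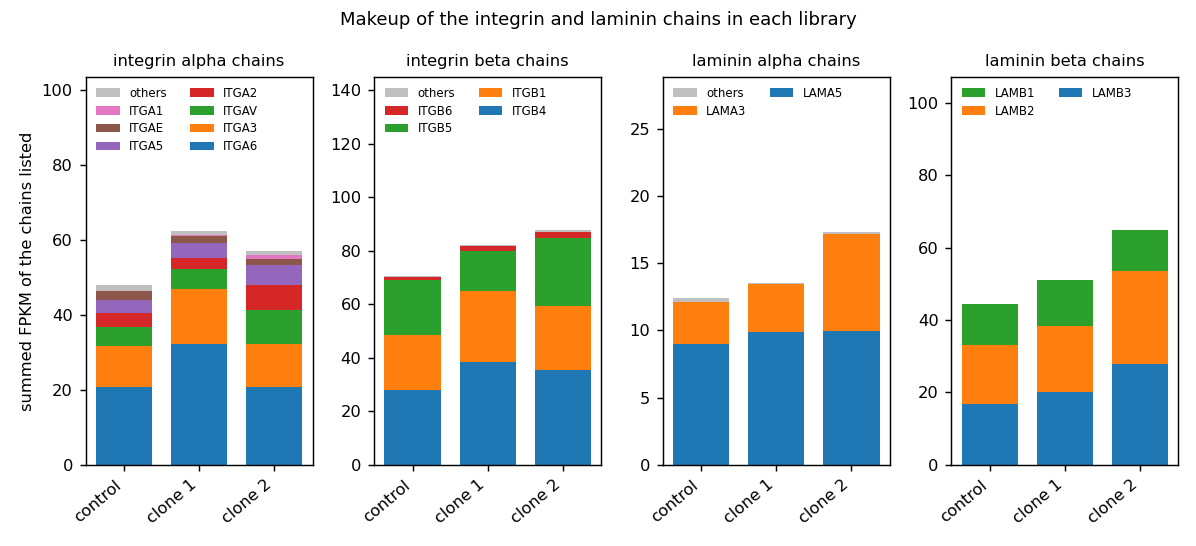
Summed FPKM of the integrin alpha, integrin beta, laminin alpha and laminin beta chains as stacked bars from 0, 1 bar per library and 1 colour per gene, with a scale of its own in each panel. ITGA6 takes 51.8% of the alpha chains in clone 1 and 36.5% in clone 2, and LAMA3 takes 41.5% of the laminin alpha chains in clone 2.

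The partners of integrins and laminins were described by 4 further lists. Of 27 adaptors and focal adhesion genes, 19 passed the filter, with medians of -0.05 in clone 1 and 0.23 in clone 2 on the log2 scale of FPKM + 1. FLNA, an actin crosslinker that binds beta chains, was at 72.0, 48.0 and 103 FPKM. TNS4, an adaptor that binds the tail of ITGB1, was at 42.9, 25.1 and 84.0 FPKM. FLNA and TNS4 were lowest in clone 1 and highest in clone 2, with log2 ratios between the clones of 1.08 and 1.71.

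Of 10 hemidesmosome and tetraspanin partners, 7 passed the filter, with medians of 0.29 in clone 1 and -0.06 in clone 2. COL17A1, the transmembrane collagen of hemidesmosomes, was at 2.41, 5.57 and 2.83 FPKM, and CD9, a tetraspanin that associates with integrins, was at 75.9, 102 and 63.1 FPKM. Like ITGA6, both were highest in clone 1. Of 16 basement membrane partners, 8 passed, with medians of 0.10 and 0.30. SDC4, a proteoglycan co-receptor of focal adhesions, was at 50.1, 15 and 255 FPKM, lowest in clone 1 and highest in clone 2. NTN4, a netrin that binds laminin, was at 2.65, 3.52 and 5.89 FPKM, higher in both clones.

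Of 21 other ligands of integrins, 6 passed, with medians of 0.04 and 0.26. TGFB1, whose latent form is bound by receptors of ITGAV with ITGB6 or ITGB8, was at 10.9, 3.46 and 13.5 FPKM. LTBP1, which tethers latent TGF-beta to the matrix, was at 4.05, 12.4 and 1.86 FPKM, and these genes thus had opposite orders over the libraries. ICAM1, the ligand of leukocyte receptors with ITGB2, was at 6.70, 2.47 and 13.3 FPKM, lowest in clone 1 and highest in clone 2. No gene of the 4 lists passed an adjusted p-value of 0.05 in limma.

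**Figure D5:**
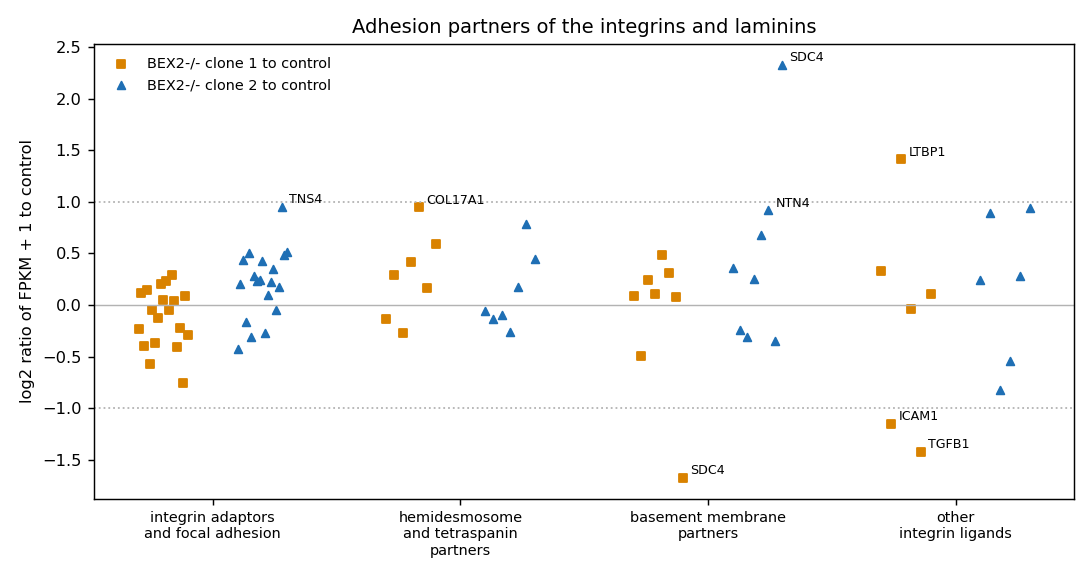
Log2 ratio of FPKM + 1 to the control library for each gene past the filter in the 4 partner lists, as squares for clone 1 and triangles for clone 2, with dotted lines at 2-fold. SDC4 lies furthest out on both sides, at -1.68 in clone 1 and 2.33 in clone 2.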

How the data were processed

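RNA-Seq libraries of DLD1 control cells (1) and BEX2-/- DLD1 clones (2) were analysed. The authors prepared them with the Illumina TruSeq RNA kit, which does not mark strand, and deposited 1 table of FPKM values per gene, which holds no counts. The submitters' processing notes name Trim Galore 0.3.7, STAR 2.5, Cufflinks 2.2.1, DESeq 1.22.1 and hg19, without their roles. Of the 60504 identifiers, 56996 are in GENCODE 29 on GRCh38, which gave symbols, coordinates and exon lengths here. Coordinates are therefore those of GRCh38 and not of hg19.

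Members were matched by symbol. Members and lists were chosen with earlier results of these data known. A partner gene was taken out of its list afterwards and is not reported here. Ratios of FPKM + 1 covered genes for which the average of the control level and the clone average reached 1 FPKM. All 32 members are named. From the partner lists, genes at least 2-fold apart in any comparison are named, and where a list had fewer than 2 of these, the 2 with the largest ratio between the clones. Limma 3.58.1 (R 4.3.3) used a mean trend and Benjamini-Hochberg adjustment over all genes. Nothing says whether the libraries came from separate cultures. The p-values rest on the distance between the clones, which holds differences of clone, culture and library preparation together. No spread among control libraries was measured.

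Reads were FPKM times exon length times depth, whole within 0.02 for 98.7% to 98.9% of low values (under 20 reads) of genes with 1 transcript, for 88.9% to 89.8% of those of other genes and for 29 of 32 members in every library. For ITGB6, LAMA2 and LAMA3 they are approximate. Intervals are Clopper-Pearson 95% intervals of the split of reads, and a count of 0 was taken to allow 3 reads. Read recovery was chosen with the values known. Promoters were from RefSeq (GRCh38.p14). Methods were tested on simulated data in which genes of at least 5 FPKM changed by more than 2-fold in both clones. These data do not cover smaller changes, changes in a single clone or genes at lower levels. The outcome on the simulated data is not reported here, so it does not show whether limma could find such changes. As alternatives, the pseudocount was set to 0.1 FPKM, values were scaled by the median ratio or to TPM, the filter was dropped or raised to 5 FPKM, the threshold was 1.5-fold, limma ran without the trend and each clone was left out. Ratios without a pseudocount were added after the values were seen. Python 3.11.15 was used with scipy 1.17.1, numpy 2.4.6, matplotlib 3.10.9 and pandas 2.3.3.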

Additional observations from a re-analysis of the deposited data

How the results depend on the processing

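The number of members at least 2-fold from the control or between the clones was 0 in each comparison. With a pseudocount of 0.1 FPKM it was 1 in clone 2 (LAMA3) and 2 between the clones (ITGA2 and LAMA3), with median-ratio scaling 1 in clone 2 (LAMA3), and with TPM scaling 2 in clone 2 (ITGA1 and LAMA3) and 2 between the clones (ITGA1 and ITGA2). At 1.5-fold it was 1 in clone 1, 5 in clone 2 and 5 between the clones, with 0 in both clones. In ratios without a pseudocount, added after the values were seen, it was 3 in clone 1, 6 in clone 2, 7 between the clones and 1 in both clones. It stayed 0 without the filter and with a mean of at least 5 FPKM. With a clone left out, the count for both clones becomes the count for the other clone, already given as 0 (0 to 0). Limma gave 0 genes in all 7 settings, and with 51 to 1578 genes at an unadjusted p under 0.05 in them, 0 were members. Without a clone, limma has no residual degrees of freedom and gave no test. No paired analysis was possible because the control has 1 library. Under the planned scalings and pseudocounts the sign flipped for ITGA6 and ITGA10 in clone 2 and for ITGAV and LAMA1 in clone 1, with log2 ratios for ITGA6 between -0.003 and 0.07 and for ITGAV between -0.03 and 0.08. The median log2 ratio of all genes moved by less than 0.1 under each scaling. Members with under 20 reads in a library, such as ITGA11 and, in clone 2, LAMA1, were limited by depth.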
